A study of Mus musculus with 16 samples.

Results

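Goblet cells are the mucus-secreting cells of the gut epithelium. The 10 genes described here, Muc2, Fcgbp, Clca1, Zg16, Tff3, Spink4, Agr2, Ern2, Atoh1 and Spdef, were chosen by symbol as genes of this cell type, and all 10 were found among the 24420 features of both expression tables. They were measured by 3′ tag RNA sequencing, which reads the polyadenylated end of a transcript, in mouse small intestine of strain C57B6 per the labels. One experiment compared isolated enterocytes, the absorptive cells of the epithelium, from Mfge8 null mice (5 libraries) and WT mice (4 libraries). The other compared small intestinal tissue from Cd36 null mice (3 libraries) and WT mice (4 libraries). MFGE8, a secreted protein, is a ligand of integrins, and CD36 takes up long-chain fatty acids at the cell membrane. The labels give no sex, age, diet or construction of the null alleles and do not say whether each library was a different animal. The p-values therefore measure how far libraries spread, which could be technical spread.

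Goblet cells arise from secretory progenitors of the intestinal crypt under the transcription factor ATOH1, and SPDEF promotes their maturation. They fold the mucin MUC2 in the endoplasmic reticulum (ER), attach O-linked sugars to it in the Golgi and store it in granules. The released mucus keeps bacteria away from the epithelium and contains further secreted proteins, among them FCGBP, CLCA1, ZG16 and TFF3.

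Depth was 1618369 to 2459812 reads on genes in the enterocyte libraries and 850297 to 1000694 in the intestine libraries. The targeted genes were checked first. Mfge8 had 3.92, 2.19, 1.998, 7.50 and 1.64 normalised reads in Mfge8 null enterocytes, against 23.4, 11.4, 16.5 and 7.94 in WT enterocytes, without overlap. Cd36 had 15.4, 15.97 and 6.48 in Cd36 null intestine, against 114, 116, 111 and 115 in WT intestine. In the enterocyte table the markers of absorptive cells summed to 56407 to 81345 in Mfge8 null and 52606 to 81207 in WT libraries, and the 11 stromal markers summed to 26.0 to 86.9 in Mfge8 null and 24.6 to 53.6 in WT libraries. The 10 goblet cell genes were also all detected there. Bulk values do not say which cells of the preparation their RNA came from.

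Enterocyte libraries of the same genotype differed by far more than sampling noise, with chi-square values of their reads at 6.26 to 20.2 per degree of freedom over 16 pairs. Within a genotype of the intestine experiment this value was 0.987 to 1.117 over 9 pairs, of which 5 had p under 0.05, and pairs between genotypes had 2.14 to 2.28. Since the spread within a genotype was about that of sampling, the libraries of each genotype stand for 1 sample. For the intestine, values per library are therefore given with counting intervals and without a test between genotypes.

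The promoters of 3 of the 10 genes are shown because they are a secreted mucin, a mucus protein and the folding factor of that mucin, and because ATOH1 belongs to a class of factors that bind E-boxes, the motif CANNTG. RefSeq (GRCm38.p6) gave promoters of 300 bases, 250 before and 50 after the start, for 5 of the 10 genes. Capitals mark each CANNTG, which was searched on both strands and includes the form CAGCTG. The 3 windows lie on the plus strand, for Muc2 at chr7:141690090-141690389, for Fcgbp at chr7:28070986-28071285 and for Agr2 at chr12:35992675-35992974.
Muc2: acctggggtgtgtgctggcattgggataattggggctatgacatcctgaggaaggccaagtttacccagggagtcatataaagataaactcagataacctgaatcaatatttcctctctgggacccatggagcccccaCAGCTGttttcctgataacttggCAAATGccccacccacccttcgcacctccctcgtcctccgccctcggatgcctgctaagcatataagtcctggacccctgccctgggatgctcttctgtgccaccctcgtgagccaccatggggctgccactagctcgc
Fcgbp: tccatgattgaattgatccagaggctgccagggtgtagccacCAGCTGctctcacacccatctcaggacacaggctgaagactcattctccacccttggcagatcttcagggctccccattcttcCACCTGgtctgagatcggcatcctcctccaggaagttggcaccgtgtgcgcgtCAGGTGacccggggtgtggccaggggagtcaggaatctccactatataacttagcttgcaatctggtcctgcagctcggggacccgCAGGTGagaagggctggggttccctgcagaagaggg
Agr2: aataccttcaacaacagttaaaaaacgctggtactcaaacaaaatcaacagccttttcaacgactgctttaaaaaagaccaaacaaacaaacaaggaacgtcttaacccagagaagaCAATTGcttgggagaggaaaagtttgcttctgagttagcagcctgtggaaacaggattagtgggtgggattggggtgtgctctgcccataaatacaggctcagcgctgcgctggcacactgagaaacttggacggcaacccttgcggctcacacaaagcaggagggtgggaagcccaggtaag
Muc2 held 2 CANNTG, of which 1 was CAGCTG at position -112 relative to the start, and 1 TATAAA at -174. Fcgbp held 4 CANNTG, with CAGCTG at -208, and Agr2 held 1 CANNTG at -133 and no CAGCTG. The windows of Atoh1 and Spdef held neither CANNTG nor TATAAA. Of 32851 RefSeq promoters of the same length, 72.3% held CANNTG, 16.3% held CAGCTG and 13.6% held TATAAA, so these matches are common letters and only describe the windows.

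The first comparison asked how goblet cell transcripts in isolated enterocytes differ without Mfge8. None of the 10 goblet cell genes passed the test between Mfge8 null and WT enterocytes, and the libraries of the 2 genotypes overlapped for all 10. The test was limma on log2(value + 1) with Benjamini-Hochberg adjustment over 9432 genes, by which 3.21% of genes were called at an adjusted p of 0.05 (1.58% higher and 1.63% lower in null) and 6.42% did not overlap. By edgeR and by DESeq2 the count for the 10 genes at an adjusted p of 0.05 was also 0. It was 0 too at an unadjusted limma p under 0.05, where 15.9% of all genes tested had one. Spink4 had an unadjusted p of 0.047 by edgeR and 0.032 by DESeq2. The limma log2 changes of the 10 genes (Mfge8 null minus WT) ranged from -0.62 for Agr2 to 0.55 for Spink4. Their median was -0.04, against 0.001 over all genes tested. The median was 0.21 without null library 2. The intervals were wide: for Muc2 the 95% interval reached from -0.45 to 0.79, and changes within these bounds cannot be told from no change.

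**Figure D1:**
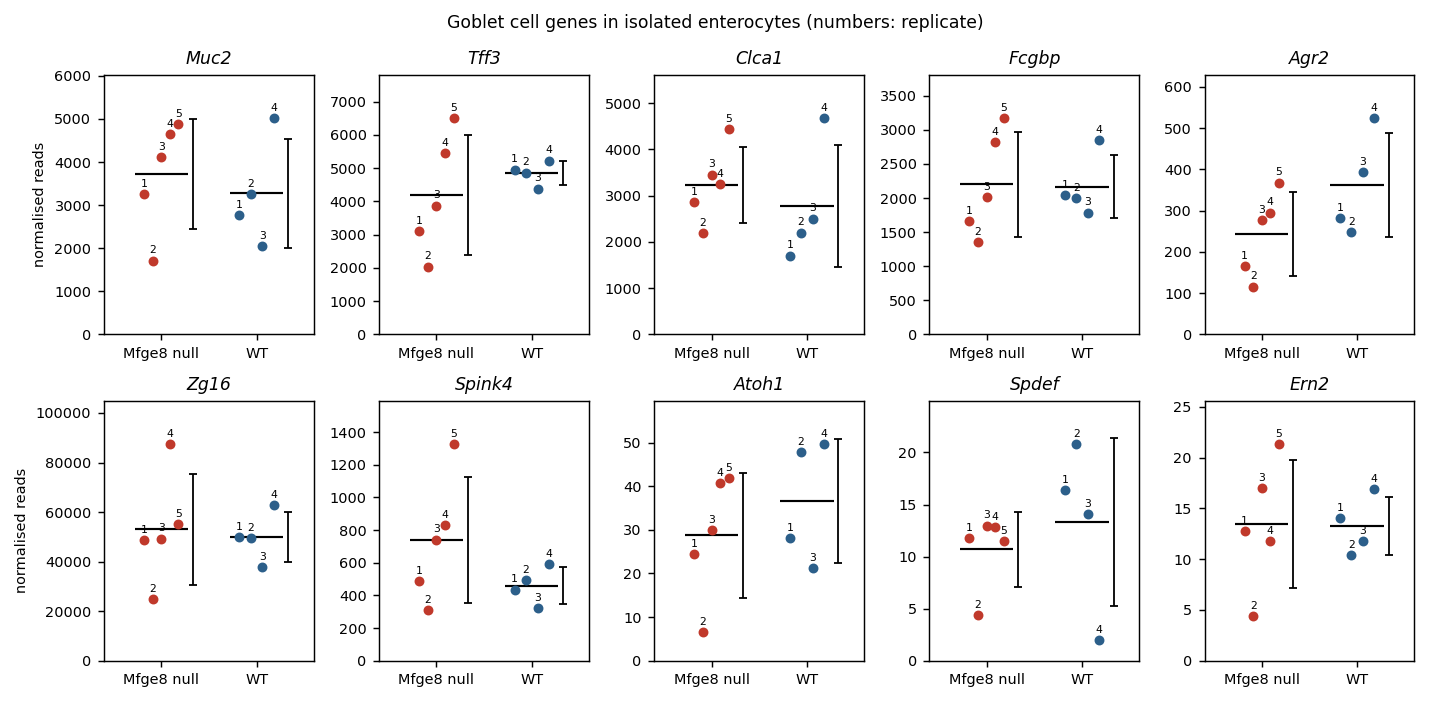
Normalised reads of the 10 goblet cell genes (y axis, from 0) in Mfge8 null (red, left, n = 5) and WT (blue, right, n = 4) enterocyte libraries, numbered by replicate, with the mean as a line and the SD as a bar. In each panel the genotypes overlap, and null library 2 is the lowest of the null libraries for all 10 genes.

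Muc2 encodes the gel-forming mucin of intestinal mucus and lies at chr7:141690340-141754691 (GRCm38), 62.5 Mb from Mfge8 on the same chromosome. Ern2 (43.0 Mb from Mfge8), Zg16 (47.9 Mb) and Fcgbp (51.0 Mb) also lie on that chromosome. Muc2 had 3251, 1714, 4112, 4656 and 4872 normalised reads in Mfge8 null libraries 1 to 5, against 2767, 3254, 2051 and 5025 in WT libraries 1 to 4. The lowest value was that of null 2 and the highest that of WT 4, with the remaining libraries interleaved. The means were 3721 ± 1284 in null (SD, n = 5) and 3274 ± 1268 in WT (SD, n = 4), a log2 change of 0.17 (limma adjusted p = 0.840).

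Fcgbp encodes a large mucus protein that binds the Fc part of immunoglobulin G. It had 2203 ± 770 normalised reads in Mfge8 null and 2168 ± 464 in WT enterocytes, a log2 change of -0.03 (95% interval -0.52 to 0.46). Clca1, a secreted metalloprotease that processes mucus, had 2857, 2186, 3454, 3242 and 4430 in Mfge8 null libraries, against 1705, 2201, 2502 and 4681 in WT libraries. The highest value of Clca1 was again that of WT 4, above all null libraries, while the other 3 WT libraries lay below 4 of the null libraries. Its log2 change of 0.29 had an interval of -0.26 to 0.84 (limma adjusted p = 0.642), and it was 0.58 without WT 4 and 0.092 without WT 1.

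Zg16, a lectin-like mucus protein that binds Gram-positive bacteria, was by far the most abundant of the 10 genes in enterocyte libraries. It had 48672, 25012, 49338, 87411 and 55068 normalised reads in Mfge8 null libraries, against 49907, 49354, 37735 and 62780 in WT libraries. Null 2 and null 4 were the lowest and the highest of all 9, so that the null group spanned the WT group on both sides. The log2 change was 0.002 (95% interval -0.72 to 0.73).

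Tff3 encodes trefoil factor 3, a small peptide of mucus that aids epithelial repair. It had 3102, 2041, 3871, 5438 and 6509 normalised reads in Mfge8 null libraries, against 4951, 4864, 4384 and 5224 in WT libraries. The WT libraries lay close together, with a coefficient of variation of 7.21%, inside a null range with one of 42.7%. The change was -0.32 (95% interval -0.89 to 0.24).

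Spink4, a Kazal-type protease inhibitor secreted by goblet cells, had the highest log2 change of the 10. It had 486, 311, 741, 832 and 1326 normalised reads in Mfge8 null libraries, against 436, 493, 323 and 590 in WT libraries. Null 3, 4 and 5 lay above all WT libraries, and null 1 and 2 lay among or below them. The change was 0.55 with a standard error of 0.31 (limma adjusted p = 0.414), and it was 0.30 without null 5.

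Agr2 encodes a protein disulfide isomerase of the ER that mice need to produce MUC2. It had 167, 116, 277, 296 and 368 normalised reads in Mfge8 null libraries, against 282, 248, 394 and 525 in WT libraries. Null 1 and 2 were the lowest and WT 3 and 4 the highest, with the remaining 5 libraries interleaved. The means were 245 ± 102 in null (SD, n = 5) and 362 ± 125 in WT (SD, n = 4). The log2 change of -0.62 had a standard error of 0.29 and an interval of -1.24 to 0.003, and it did not pass (limma unadjusted p = 0.051, adjusted p = 0.316).

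Ern2 encodes IRE1β, an ER stress sensor of mucus-producing epithelia. It was near the limit of detection in enterocytes, at 12.7, 4.38, 17.0, 11.8 and 21.3 normalised reads in Mfge8 null and 14.0, 10.4, 11.8 and 16.9 in WT libraries. The transcription factors were also low. Atoh1, which directs progenitors to the secretory lineage, had 24.5, 6.58, 30.0, 40.7 and 41.8 in Mfge8 null libraries, against 28.1, 47.8, 21.2 and 49.6 in WT libraries. Both groups had low and high libraries, with null 2 lowest, and the change was -0.48 (95% interval -1.39 to 0.43). It was -0.044 without null 2.

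Spdef, an ETS factor of goblet cell maturation, had 11.8, 4.38, 13.0, 12.8 and 11.5 normalised reads in Mfge8 null libraries, against 16.4, 20.8, 14.1 and 1.99 in WT libraries. These values rest on 4 to 14 reads per null library and 2 to 20 per WT library, and WT 4, the WT library highest for the other 9 genes, was the lowest of all for Spdef. The 95% interval was -0.92 to 0.71 for Ern2 and -1.14 to 1.05 for Spdef.

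Apart from Spdef, the goblet cell genes were mostly high or low in the same libraries of a genotype. Null 2 was the lowest null library for all 10 genes and the lowest of all 9 libraries for 8 of them, with a median deviation of -1.002 on the log2 scale from the null mean and a range of -1.75 to -0.53. Null 5 was the highest null library for 8 genes, with a median deviation of 0.65. WT 4 was the highest WT library for 9 genes and WT 3 the lowest for 6. Null 5 and WT 4 also had the highest sums of ileal markers, 8531 and 9722 normalised reads, against 940 to 3839 in the other enterocyte libraries. Null 4, the highest library for Zg16, had 988. The part of intestinal region in these levels was not tested. In bulk samples fewer cells of a type and less RNA per cell cannot be told apart, so these values do not say whether libraries differed in goblet cells or in their transcripts.

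**Figure D2:**
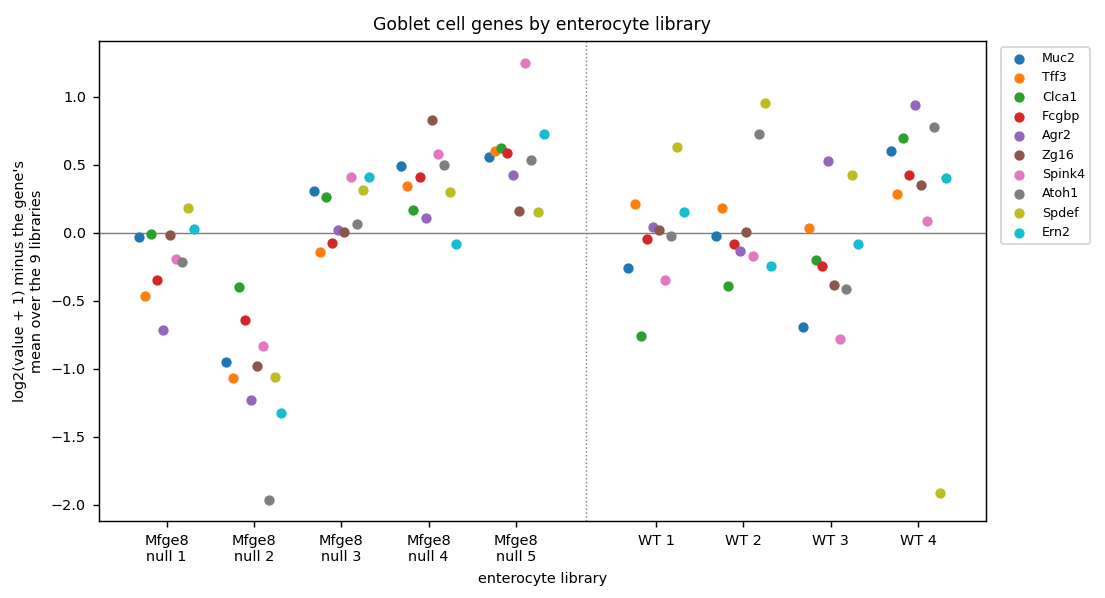
Deviation of each goblet cell gene (colour) from its own mean over the 9 enterocyte libraries (y axis, log2(value + 1) units) in each Mfge8 null and WT library (x axis). The points of null 2 lie below 0 for all 10 genes, those of WT 4 lie above 0 for 9 genes, and Spdef in WT 4 stands apart near the bottom.

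The 10 genes together took 3.31%, 1.67%, 3.16%, 5.13% and 3.81% of all reads in Mfge8 null enterocyte libraries, against 3.29%, 3.43%, 2.55% and 4.69% in WT libraries. The means of 3.42% ± 1.25 (SD, n = 5) and 3.49% ± 0.886 (SD, n = 4) lay well within each other's spread. Without Zg16 they were 0.728% ± 0.242 in Mfge8 null and 0.763% ± 0.222 in WT. A regional score, the mean of proximal minus that of ileal markers, was -0.23, 0.17, -0.97, 0.86 and -1.97 in the null libraries and 1.35, 0.55, 0.14 and 0.09 in the WT libraries. It was not balanced between the genotypes, and with it as a covariate the median change of the 10 genes was -0.11 and none passed. The score did not follow the ileal sums alone: WT 4, with a sum of 9722, had 0.09, and WT 3, with 1198, had 0.14. A fit with this score may therefore not take out region fully.

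Likeness was measured as Pearson's r between a gene and the mean of the standardised goblet cell genes, over the 9 enterocyte libraries after the genotype means were taken out. The genes share libraries and depth, a gene that is itself in the mean has part of its r from that, and no test was made. Of the 10 genes Spink4 had the highest value, 0.960, followed by Tff3 (0.956) and Atoh1 (0.951). Clca1, at 0.720, followed the others less closely, and Spdef, with few reads, had 0.142. Among all other genes tested the values were highest for Smim6 (0.975), Actn1 (0.958), Sidt1 (0.951), Otud7b (0.949), Mir703 (0.942), Nans (0.937), Mei1 (0.933), Eef2k (0.932), Trim15 (0.932) and Anxa3 (0.925). NANS is an enzyme of sialic acid synthesis and ACTN1 an actin cross-linker. Smim6, for example, had 35.3, 21.9, 39.0, 41.8 and 46.7 normalised reads in Mfge8 null libraries, against 47.9, 48.9, 50.2 and 56.6 in WT libraries, again with null 2 lowest and WT 4 highest. All 10 of these like genes had their lowest null value in null 2 and their highest WT value in WT 4. They were picked for likeness to the goblet cell genes, so this shared pattern follows from the choice and is no further result. Of 17 further goblet cell markers tested, 6 ranked among the 500 of 9422 genes with the highest r, with a median r of 0.47. Paneth cell markers had 3 of 13 there (median r 0.56), immune markers 1 of 7 (0.53) and genes of mucin O-glycosylation 3 of 16 (0.25). Absorptive cell markers had 0 of 10 (-0.33). The likeness was thus not particular to goblet cell markers.

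Because the genes were high or low together between libraries, each was also divided by Muc2 in the same library. The ratio of Agr2 to Muc2 was 0.0512 to 0.0756 in Mfge8 null libraries and 0.0764 to 0.192 in WT libraries, and that of Atoh1 to Muc2 was 0.00384 to 0.00874 in null and 0.00988 to 0.0147 in WT. These were the 2 of 9 genes whose ratios did not overlap, both lower in null. Over all genes 0.551% were lower without overlap and 1.33% did not overlap in either direction, against 6.42% before the division. Most goblet cell genes varied with Muc2 between libraries, which the division takes out, while it adds the spread of Muc2 to genes that did not. The share over all genes is therefore no like measure for these 9. For Agr2 the gap between the groups was small. In a fit with log2 Muc2 as a covariate (added after the data had been seen) the change was -0.76 for Agr2 (limma adjusted p = 0.057) and -0.72 for Atoh1 (0.124), and neither passed. The ratios of Tff3, Clca1, Fcgbp, Zg16, Spink4, Spdef and Ern2 to Muc2 overlapped between the genotypes.

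Genes that act on mucins and on secretory cells were described by lists. In Mfge8 null enterocytes 1 of 16 genes of mucin O-glycosylation, 1 of 20 genes of ER folding and secretion and 1 of 3 membrane mucins rose, and none of these 39 fell, where 1.58% of all genes were called higher and 1.63% lower. DESeq2 called 3 of the O-glycosylation genes, 3 of the ER genes and 1 membrane mucin, and edgeR called 1 of each list. None of 13 genes of the secretory lineage and Notch signalling and none of 17 further goblet cell markers passed by limma, edgeR or DESeq2. At an unadjusted limma p under 0.05 there were 2 and 0, where 15.9% of all genes tested had one, so the 2 lineage genes were near the background. The medians of the log2 change were 0.17 for O-glycosylation, 0.35 for ER folding, 0.35 for membrane mucins, 0.21 for the lineage genes and -0.17 for the further goblet cell markers, against 0.001 over all genes.

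Fut2, the fucosyltransferase that adds terminal fucose to mucin glycans, was the O-glycosylation gene that rose. It had 8.82, 10.96, 17.98, 27.8 and 27.9 normalised reads in Mfge8 null enterocytes, against 3.51, 1.04, 2.35 and 6.95 in WT enterocytes. All null libraries lay above all WT libraries, a log2 change of 2.18 (SE 0.46), with a limma adjusted p of 0.016. Fut2 passed the filter on low values only through the null libraries, since 1 WT library reached 5. The call held in 17 of 20 settings and was lost with the regional score as a covariate (limma adjusted p = 0.098). Gcnt1, which builds core O-glycan branches, had 75.1 ± 35.6 in null (SD, n = 5) and 30.3 ± 11.7 in WT enterocytes (SD, n = 4), a change of 1.23 that did not pass (limma adjusted p = 0.075). B3gnt6, an enzyme of O-glycan cores, had 6.74 ± 3.70 in null and 3.12 ± 2.45 in WT.

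Muc4, a membrane-bound mucin, had 104, 53.7, 42.9, 123 and 59.9 normalised reads in Mfge8 null enterocytes, against 11.7, 28.1, 11.8 and 33.8 in WT enterocytes. The groups did not overlap, and Muc4 rose by 1.84 on the log2 scale (limma adjusted p = 0.008), a call that held in all 21 settings run. The other membrane proteins of its list, Muc13 and Cdhr5, had changes of 0.35 and 0.34 and did not pass. Muc13 had 3851 ± 1053 in null and 2951 ± 303 in WT enterocytes.

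Hsp90b1, an ER chaperone, had 1084 ± 87.7 normalised reads in null (SD, n = 5) and 735 ± 62.9 in WT enterocytes (SD, n = 4), without overlap, and rose by 0.56 (limma adjusted p = 0.030). This call held in 11 of 21 settings. In the ER folding list 17 of 20 genes had a positive change and 9 had an unadjusted p under 0.05, all 9 higher, where 15.9% of all genes tested had one in either direction. The chaperone Hspa5 (log2 change 0.58, limma adjusted p = 0.099), the secreted ER factor Manf (0.72, 0.071) and Sdf2l1, an ER protein of folding (0.69, 0.136), did not pass. The list covers all cells that secrete, and the immune markers summed to 3176 to 7429 normalised reads in null and 1133 to 3353 in WT enterocytes. Jchain, the joining chain of plasma cell antibodies, was the 1 of 7 immune genes tested that limma called higher, where 1.58% of all genes were. All 7 had a positive change, with a median of 0.96, and 6 had an unadjusted limma p under 0.05. DESeq2 called 3 of the 7 and edgeR called 1. Cd79a was at 0 in all libraries. The part of these markers in the ER list was not tested.

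Of the lineage genes, Klf4, a factor of goblet cell differentiation, had 3162, 2766, 4125, 3039 and 2830 normalised reads in Mfge8 null enterocytes, against 1259, 2231, 2556 and 2759 in WT enterocytes. The groups did not overlap, by a small margin between null 2 and WT 4, and the change of 0.58 did not pass (limma adjusted p = 0.183). Foxa1, a forkhead factor of secretory cells, had 49.3 ± 12.1 in null and 31.0 ± 6.44 in WT enterocytes (change 0.64, limma adjusted p = 0.176). Notch1, the receptor whose signal holds back the secretory fate, had 13.1 ± 8.11 in null and 9.49 ± 7.08 in WT.

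Of the further goblet cell markers, Guca2a, which encodes the hormone guanylin, had 628, 664, 1220, 246 and 1625 normalised reads in Mfge8 null enterocytes, against 993, 1141, 1480 and 1394 in WT enterocytes. Its null libraries spanned those of WT, and its change of -0.76 did not pass (limma adjusted p = 0.344). With the regional score as a covariate Guca2a did pass, with a change of -1.56 (limma adjusted p = 0.0012), the 1 further goblet cell marker called in that fit. Slc12a8 and Pla2g10, a secreted phospholipase A2, had changes of -0.58 and -0.42 that did not pass either. By limma, markers of the other secretory cells had no called gene either: Paneth cell markers (13 tested) had a median of -0.00011, enteroendocrine markers (12) a median of -0.53 and tuft cell markers (8) a median of 0.50. edgeR called 1 Paneth gene, Ang4 (higher in null, adjusted p = 0.044), and edgeR and DESeq2 each called 1 enteroendocrine gene, Sst (lower in null, adjusted p = 0.047 and 0.025). At an unadjusted limma p under 0.05 there were 2 Paneth genes, both higher, 5 enteroendocrine genes, all 5 lower, and 0 tuft cell genes. Over all genes tested 15.9% had one in either direction, so the number of Paneth genes was near the background.

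The second comparison asked how goblet cell transcripts of the whole intestine differ without Cd36. In Cd36 null intestine 9 of the 10 goblet cell genes were higher than in WT intestine by 0.09 to 0.55 on the log2 scale, and Ern2 was lower by 1.62. The median was 0.16, against -0.002 over 9314 genes, of which 49.8% were higher in null by any amount. Only Ern2 was past 1.5-fold, where 9.63% of all genes were past it in either direction (4.06% higher and 5.57% lower), so the number past the fold was near the background. Libraries of the 2 genotypes did not overlap for 8 of the 10 genes, 7 of them higher in null. Over all genes 16.5% did not overlap and 8.61% were higher in null without overlap. Other lists also had many genes without overlap: 7 of 10 absorptive cell markers (5 higher) and 7 of 12 Paneth cell markers (2 higher). Enteroendocrine markers had 4 of 12 (4 higher) and ER folding genes 1 of 20 (0 higher). With 1 sample per genotype none of these differences has a replicate check.

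**Figure D3:**
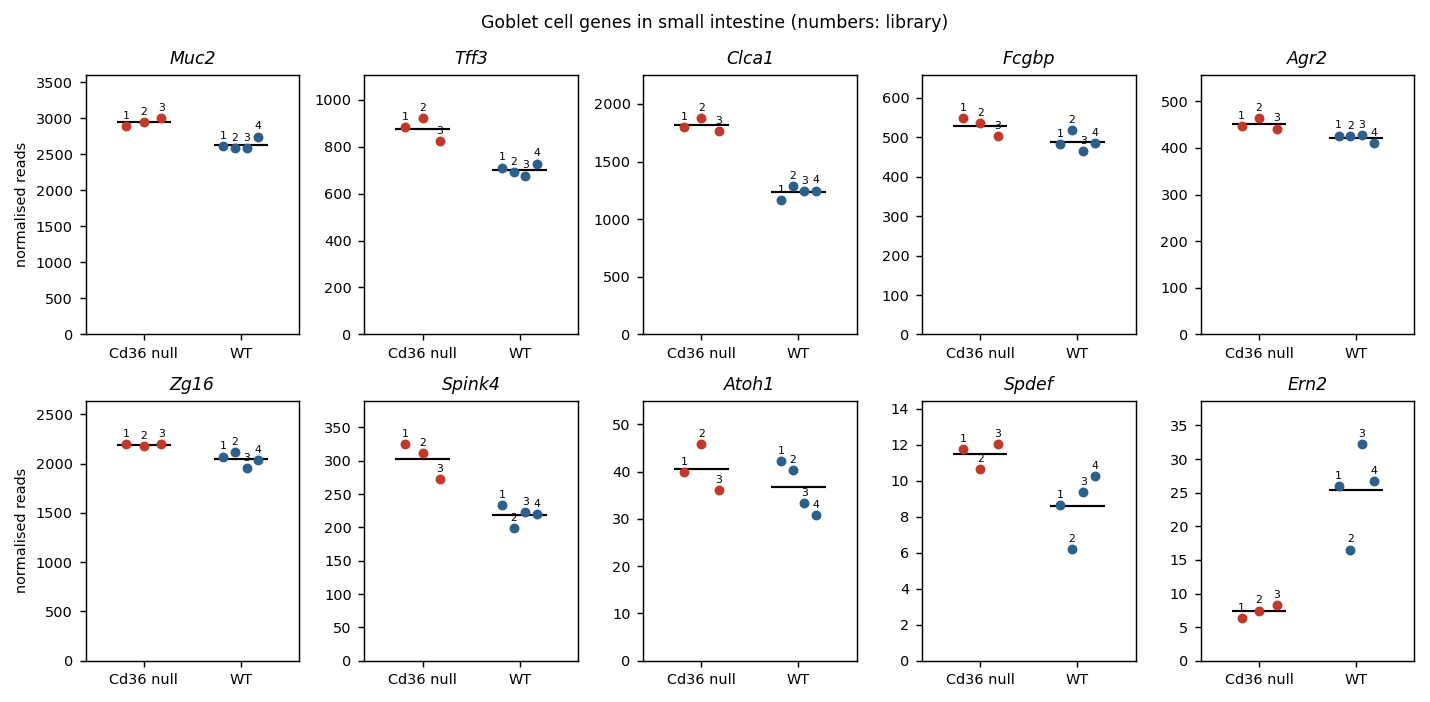
Normalised reads of the 10 goblet cell genes (y axis, from 0) in the 3 Cd36 null (red, left) and 4 WT (blue, right) small intestine libraries, numbered, with the mean as a line. The libraries of each genotype lie close together for most genes, less so for the low genes Ern2, Spdef and Atoh1. Those of the genotypes do not overlap for 8 genes, and Ern2 is the only gene past 1.5-fold.

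Among the secreted proteins Clca1 had the largest difference. It had 1800, 1880 and 1768 normalised reads in Cd36 null libraries, against 1167, 1286, 1247 and 1248 in WT libraries. Every null library was above every WT library, and the ratio of summed normalised reads (null over WT) was 1.47 with a 95% counting interval of 1.41 to 1.52. Spink4 had 325, 311 and 272 in Cd36 null libraries, against 233, 199, 222 and 220 in WT libraries, with a ratio of 1.38 (1.26 to 1.52). Tff3 had 884, 922 and 822 in Cd36 null libraries, against 711, 692, 676 and 728 in WT libraries, with a ratio of 1.25 (1.18 to 1.31). For both genes the groups did not overlap.

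The mucin and the lectin differed less. Muc2 had 2892, 2945 and 3004 normalised reads in Cd36 null libraries, against 2607, 2579, 2586 and 2745 in WT libraries, and its ratio was 1.12 (1.09 to 1.15). Zg16 had 2197, 2177 and 2196 in null, against 2071, 2116, 1956 and 2037 in WT, and its ratio was 1.07 (1.04 to 1.11). The groups did not overlap for either gene, although the gap was narrow for Zg16. Fcgbp had 549, 537 and 502 in null, against 482, 517, 464 and 485 in WT, with overlap and a ratio of 1.09 (1.02 to 1.16).

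Ern2, at chr7:122169893-122186239 (GRCm38), had 6.33, 7.45 and 8.33 normalised reads in Cd36 null libraries, against 25.9, 16.5, 32.2 and 26.7 in WT libraries. These values rest on 7 to 9 reads per null library and 16 to 31 per WT library. All null libraries were below the lowest WT library, and the ratio was 0.290 (0.176 to 0.461). Agr2, the other ER gene, had 446, 464 and 441 in null, against 426, 424, 428 and 409 in WT, and its counting interval of 0.992 to 1.14 included 1. The Ern2 value in Mfge8 null enterocytes, 13.4 ± 6.32 against 13.3 ± 2.84 in WT (SD, n = 5 and 4), was in another cell preparation and another table, and the difference between the experiments was not tested.

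The transcription factors were low in the intestine too. Atoh1 had 39.8, 45.8 and 36.1 normalised reads in Cd36 null libraries, against 42.3, 40.3, 33.3 and 30.8 in WT libraries, with overlap and a ratio of 1.10 (0.857 to 1.40). Spdef had 11.8, 10.6 and 12.0 in null, against 8.64, 6.20, 9.35 and 10.3 in WT, with no overlap but with an interval of 0.813 to 2.20 that included 1. For these 2 genes a difference inside the counting interval could not be told from none. The 10 genes together took 1.001% to 1.02% of reads in Cd36 null libraries and 0.866% to 0.896% in WT libraries.

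**Figure D4:**
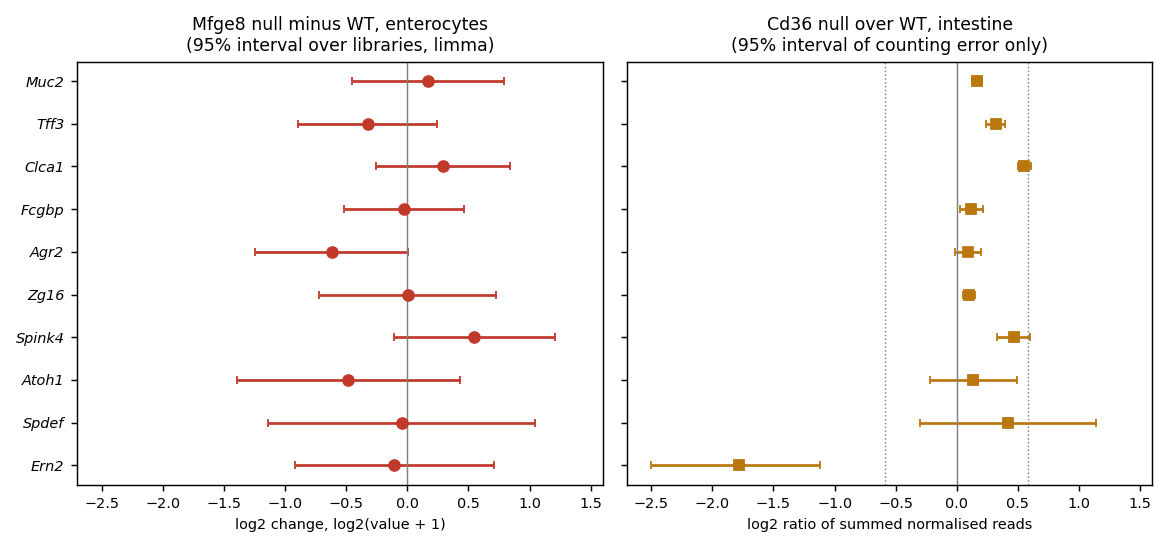
Change of each goblet cell gene (rows) on the log2 scale (x axis), in Mfge8 null minus WT enterocytes with 95% limma intervals over libraries (left) and as the ratio of summed normalised reads in Cd36 null over WT intestine with 95% counting intervals (right; dotted lines mark 1.5-fold). All enterocyte intervals include 0, and in the intestine Ern2 lies at a ratio of 0.290 while the other 9 lie between 1.07 and 1.47.

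Further goblet cell markers were also described in Cd36 null intestine. Of 18 that passed the filter on low values, 14 had a positive difference, 4 were past 1.5-fold higher and 1 lower. Retnlb and Pla2g10 passed the filter only through the null libraries and Capn9 only through the WT libraries, so these numbers are no measure of the list. Retnlb, an antibacterial protein that goblet cells secrete, had 32.6, 31.9 and 34.2 normalised reads in Cd36 null libraries, against 8.64, 6.20, 0 and 0 in WT libraries. The ratio was 8.67 (5.02 to 16.1), from 103 reads in null and 15 in WT. Guca2a had 489, 502 and 435 in Cd36 null libraries, against 321, 289, 283 and 285 in WT libraries, a ratio of 1.61 (1.49 to 1.74). Both genes were higher in every null library. Pla2g10 had 6.10 in null and 2.05 in WT on average, and the fourth gene past the fold, Bace2, a protease, had 15.0 in null and 9.56 in WT with overlap. Capn9, a calpain of the digestive tract, was lower, at 6.33, 3.19 and 10.2 in null against 13.4, 11.4, 11.4 and 21.5 in WT.

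In mucin O-glycosylation Fut2 and St6galnac1 were past 1.5-fold higher in Cd36 null intestine. Both passed the filter on low values only through the null libraries, in which they were high, so their number is no measure of the list. Fut2 had 19.0, 24.5 and 16.7 normalised reads in null, against 4.802, 3.10, 7.27 and 9.24 in WT, a ratio of 3.26 (2.01 to 5.47). St6galnac1, a sialyltransferase of mucin glycans, had 13.6, 9.58 and 6.48 in null, against 0, 0, 1.04 and 0 in WT. It rests on 31 reads in null and 1 in WT, and its counting interval of 6.52 to 1595 is wide. No read of St6galnac1 was found in the 9 enterocyte libraries. Muc4 had 74.2, 79.9 and 74.9 in null, against 94.1, 110, 108 and 101 in WT, a difference of -0.43 that was not past the fold.

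Of 14 lineage genes that passed the filter on low values, 4 were past 1.5-fold, 2 higher and 2 lower. Over all genes 9.63% were past it in either direction. Creb3l4 passed the filter only through the null libraries, and Gfi1 and Foxa2 only through the WT libraries. The number past the fold is therefore no measure of the list. Sox9, a factor of progenitor and Paneth cells, had 147, 137 and 138 normalised reads in Cd36 null intestine, against 84.5, 84.7, 95.6 and 99.5 in WT intestine, a ratio of 1.55 (1.34 to 1.78). Gfi1, a factor that acts after ATOH1 in secretory cells, had 5.43, 5.32 and 0.925 in null, against 5.76, 6.20, 6.23 and 10.3 in WT, and its counting interval of 0.251 to 1.10 included 1. Creb3l4 (difference 0.67) and Foxa2 (-0.66) were also past the fold, with overlap. In the ER folding list Pdia5, a disulfide isomerase, was past the fold, lower (-0.68), and it passed the filter only through the WT libraries.

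The goblet cell genes were not the markers with the largest difference in the Cd36 table. Of 9 tuft cell markers 7 passed the filter on low values. These 7 were past 1.5-fold higher in null, with a median of 1.37, where 4.06% of all genes were past it higher. A low gene that is high in null can pass this filter through the null libraries alone, so the filter can raise this count. The sum of all 9 markers, taken without the filter, was 397 to 404 normalised reads in null and 155 to 186 in WT. Enteroendocrine markers summed to 611 to 669 in null and 474 to 551 in WT, and Paneth markers to 1392 to 1512 in null and 1520 to 1688 in WT. Stem and cycling markers summed to 225 to 258 in null and 313 to 342 in WT, immune markers to 608 to 629 in null and 681 to 903 in WT, and stromal markers to 37.3 to 45.3 in null and 53.7 to 71.7 in WT. The regional score was 0.73 to 1.02 in null and -1.04 to -0.31 in WT libraries, without overlap. These sums and scores moved with genotype beside the goblet cell genes, and their part in the differences was not tested.

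The make-up of the reads of the 10 goblet cell genes differed between the 2 kinds of sample, and the cells that these reads came from are not known. Because a 3′ tag is read about once per transcript, gene length hardly enters a comparison between genes. Zg16 made up 72.6% to 83.4% of the reads of the 10 genes in the 9 enterocyte libraries and 23.4% to 26.9% in the 7 intestine libraries, while Muc2 made up 4.17% to 6.44% in enterocytes and 31.6% to 34.6% in intestine. The ratio of Zg16 to Muc2 was 11.3 to 18.8 in Mfge8 null and 12.5 to 18.4 in WT enterocytes, and 0.731 to 0.760 in Cd36 null and 0.742 to 0.820 in WT intestine. In both experiments the genotypes overlapped in this ratio, and the 2 kinds of sample did not.

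**Figure D5:**
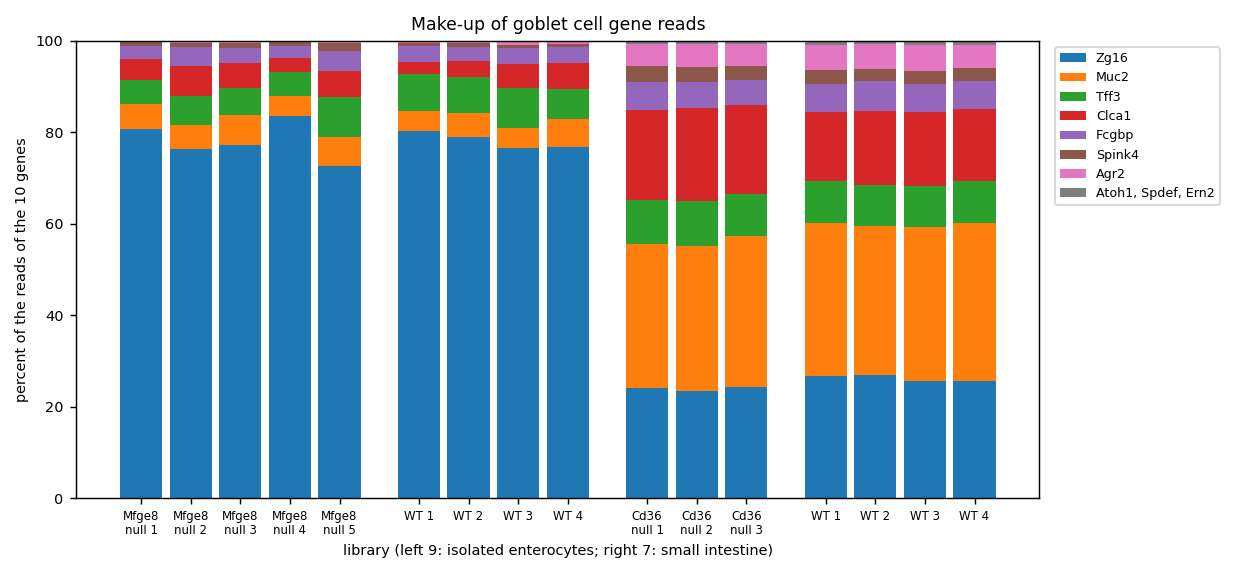
Percent of the reads of the 10 goblet cell genes (y axis, 0 to 100) that each gene took (colours) in each library (x axis), with 9 enterocyte libraries on the left and 7 small intestine libraries on the right, null before WT in each. Zg16 fills 72.6% to 83.4% of the enterocyte bars and 23.4% to 26.9% of the intestine bars.

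As RPM, reads scaled to the same library total, in WT libraries Zg16 had a mean of 27262 in enterocytes and 2304 in intestine, 11.8 times as much. Tff3 had 2639 in enterocytes and 791 in intestine, and Fcgbp had 1184 in enterocytes and 549 in intestine. Clca1 (1523 in enterocytes, 1394 in intestine) and Spink4 (252 in enterocytes, 246 in intestine) were at close levels in both. Muc2 was lower in enterocytes, at 1799 against 2963 in intestine, as was Agr2, at 198 in enterocytes against 476 in intestine. Of the low genes, Atoh1 had 20.1 in enterocytes and 41.3 in intestine, Ern2 had 7.22 in enterocytes and 28.6 in intestine, and Spdef had 7.13 in enterocytes and 9.71 in intestine. The range of Spdef in WT enterocytes, 1.14 to 11.4, covered that in WT intestine, and that of Muc2, 1063 to 2882, reached almost to its lowest intestine value of 2886. The extraction kit, the cell preparation and the depth differ with the experiment, so their parts in these levels cannot be told apart, and no test was made across the tables.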

How the data were processed

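The 16 mouse libraries were placed in 4 groups by the genotype and sample type of their labels. Per the labels' protocols, RNA came from small-input (enterocytes) or lipid tissue (intestine) column kits and was sequenced as single-end 3′ tags with a UMI module. The submitters' processing notes name the genome build mm10, DESeq2 2.11.40, HTSeq 0.91, HISAT2 2.1.0 and Trimmomatic 0.38.1. Their order, settings, UMI use and strand setting are not given in the sources used here. The intestine intervals cover counting error only, and the enterocyte intervals cover the spread between libraries. Neither kind accounts for these unknown settings.

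Each of the 2 deposited tables held a normalised signal, which the authors scaled separately. All values (100%) were whole multiples of 1 step per library (tolerance 1e-06), read as counts divided by size factors of 0.855 to 1.28 (enterocytes) and 0.939 to 1.105 (intestine). The step is less certain for WT 4 and null 3 of the enterocyte table, whose factor is close to 1.

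Genes were analysed where 4 (enterocytes) or 3 (intestine) libraries reached a value of 5, and all 10 goblet cell genes passed this filter. The enterocyte test was limma 3.58.1 with trend on log2(value + 1), 2-sided, run in R 4.3.3. A fold change on this scale understates that of low genes. edgeR 4.0.16 on the recovered reads called 317 genes and DESeq2 1.42.0 called 430, against 303 by limma. Intestine ratios had exact 95% intervals. edgeR called 754 genes between the intestine libraries, which compares those libraries and not the conditions. Alternatives changed the pseudocount, filter, scaling, tool, covariate, replicate block and libraries. The limma procedure was tested on simulated data with 200 changed genes.

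The goblet cell genes, lists, tests and most alternatives were chosen with earlier results of these data known. Beside the 10 genes and both targeted genes, the text names list genes that were called, or past 1.5-fold without overlap, or among the 3 largest changes of a list, and the 10 genes most like the goblet cell genes. Bace2 was named after its values were seen.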

Additional observations from a re-analysis of the deposited data

Results flagged for a closer look

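Of 30 groups of 4 or 5 libraries checked over the 10 genes, 2 held a library that stood far from the others of its group, and chance gives about 1 in 20. Spdef in Mfge8 null library 2 was at 4.38 normalised reads, where the other 4 null enterocyte libraries had 11.5 to 13.0. Muc2 in WT library 4 of the Cd36 experiment was at 2745 normalised reads, where the other 3 WT intestine libraries had 2579 to 2607, and it still lay below all Cd36 null libraries.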

How the results depend on the processing

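In enterocytes 180 of 207 recomputed values of the 10 genes kept their direction and their side of the threshold, 26 changed sign without passing, and 1 now passed. With the regional score as a covariate the log2 change was -0.027 for Muc2, -0.039 for Clca1 and 0.051 for Spdef. By edgeR and DESeq2 it was 0.0092 and 0.021 for Fcgbp and 0.033 and 0.041 for Ern2. By edgeR without WT 4 and null 3, a choice made after seeing the data, it was 0.21 for Fcgbp and 0.089 for Ern2. Zg16 was at -0.017 with TMM scaling, -0.089 with RPM and -0.13 with Muc2 as a covariate. Leaving out 1 library in turn gave -0.029 to 0.43 for Muc2, -0.51 to -0.094 for Tff3, 0.092 to 0.58 for Clca1, -0.80 to -0.38 for Agr2, 0.30 to 0.82 for Spink4, -0.71 to -0.044 for Atoh1, -0.18 to 0.13 for Fcgbp, -0.20 to 0.25 for Zg16, -0.69 to 0.26 for Spdef and -0.30 to 0.21 for Ern2. The cause of these changes was not tested. Spdef and Ern2 have no value with the filter at 20.

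Whether the replicate numbers pair the libraries is not known. The correlation of same-numbered deviations was -0.12, -0.07, 0.21 and 0.09 in enterocytes and -0.01 to 0.003 in intestine. In enterocytes null 3 and null 4 correlated best with the WT library of their own number, while null 1 did so with WT 4 and null 2 with WT 1. In intestine the best WT library had another number each time. So few values without a reference cannot decide on pairing. Null 5 has no WT library of its number, so the block also takes it out of the difference. With the number as a block, 229 genes were called in enterocytes, Zg16 was at -0.038 and Agr2 at -0.80 (limma adjusted p = 0.019), and without null 5 alone Agr2 was also at -0.80 (0.198) and Zg16 also at -0.038.

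The number of genes called in enterocytes, 303, was 123 with the regional score as a covariate and 140 (without WT 1) to 388 (without WT 4) when 1 library was left out, with 173 without WT 2, 185 without null 3 and 199 without null 5. With RPM it was 111 higher and 214 lower, against 149 and 154. The number past 1.5-fold in intestine, 897, was 413 with a pseudocount of 5, 2207 without a filter and 262 with the filter at 20, where low genes drop out by construction, and 886 to 1176 when 1 library was left out. All 149 recomputed intestine values of the 10 genes stayed within the spread between libraries. Depth limits Spdef, Ern2 and Atoh1, which rest on 51 reads or fewer per library.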
